A study of Mus musculus with 21 samples.

Results

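Transcript levels of 10 genes that mark blood vessel endothelium were followed through the formation of the mouse testis: the receptor genes Flt1, Kdr, Flt4, Tek and Tie1, the transcription factor genes Sox17 and Sox18, and the endothelial genes Emcn, Vwf and Cdh5. They were taken by symbol from the array platform's annotation. All 10 were among the 14338 genes tested, and each of their 16 probe sets (groups of oligonucleotides that read 1 transcript on the array) passed the filter on dim signals. Whole testes of wild-type male CD-1 mice, an outbred stock, were measured on 20 arrays from gestation day (gd) 11 to postnatal day (pnd) 2. There were 5 arrays at gd11 (Theiler stage 18), 3 at gd12 (stage 20), 3 at gd14 (stage 22), 3 at gd16 (stage 24), 3 at gd18 (stage 26) and 3 at pnd2 (stage 27). The sample labels give pools of 2 at gd11, pools of 5 at gd12 and no pool size later. The design text describes 1 animal per sample, and the sample labels were followed here. One further array, the reference, held RNA of 8 whole wild-type newborns of pnd0.5 (4 male and 4 female, stage 27) of a strain that the labels do not give. The arrays held whole organs and no sorted endothelium, so a change in the share of endothelial cells and a change in RNA per cell cannot be told apart in any value below. Every array was scaled to the same mean level, so no value gives the number of endothelial cells.

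Vessels grow and mature through a small set of receptors. Flt1, Kdr and Flt4 encode the receptors for vascular endothelial growth factors (VEGFs): Kdr carries the main growth signal, Flt1 binds VEGF-A tightly and can act as a decoy, and Flt4 binds VEGF-C and VEGF-D and is required for lymphatic vessels. Tek encodes the receptor for the angiopoietins and Tie1 its partner, and both act in vessel maturation. The related factors Sox17 and Sox18 act in arterial and in lymphatic and general endothelial differentiation, and Cdh5 encodes VE-cadherin, the adhesion molecule of endothelial junctions. Emcn encodes endomucin, a surface sialomucin found mainly on veins and capillaries, and Vwf encodes von Willebrand factor, a clotting protein of endothelium and megakaryocytes. In the fetal mouse testis, endothelial cells that migrate in from the mesonephros form the testis-specific artery while the cords are being laid down.

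Values are array intensities as deposited, scaled so that each array's trimmed mean (2% removed at each end) was 500, and changes are later minus earlier stage on the scale of log2(intensity + 22.4), which understates the change of dim genes. A change was called at a limma adjusted p under 0.05 over all 14338 genes. With 3 to 5 arrays a stage, precision is limited by their number. Correlations between arrays of a stage ran from 0.934 to 0.972 at gd11 and from 0.965 to 0.979 within the later stages. A list of 11 measured neural genes had a summed intensity of 83411 and 48512 on gd11 replicates 16 and 17 and of 4492 to 11544 on the other gd11 arrays. On gd12 replicate 13, the list of 8 adrenal genes summed to 5267, against 1086 and 915 on replicates 14 and 15. A list of 5 mesonephros and duct genes summed to 2644 to 8012 at gd11, 2500 to 3845 at gd12 and 1119 to 1136 at gd14. The part of such tissue in the changes between these stages was not tested. Changes of genes described below, for adjacent stages and for pnd2 against gd11, were refitted without gd11 replicates 16 and 17. Those whose call depended on these 2 arrays, or that moved by over 1.5 times, are given without them too. The fit over all probe sets was not repeated that way. In a comparison that does not hold gd11, leaving these arrays out changes the estimate of the spread and not the size of the change. The share of all genes called was not counted for such a fit, so gains in calls cannot be read as particular to these genes. No gene of the endothelial list was near background (a stage mean under 71.6) at every stage, and 8 of 9 testis-defining genes rose between gd11 and pnd2, or all 9 without gd11 replicates 16 and 17.

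Over the whole period, 8 of the 10 genes fell and 2 rose. Flt1, Kdr, Flt4, Tek, Tie1, Emcn, Sox17 and Vwf were lower in pnd2 testes than in gd11 testes, by 2.1-fold for Sox17 to 4.09-fold for Emcn, whereas Sox18 was 2.33-fold and Cdh5 2.09-fold higher. Among all genes tested in that comparison, 24.4% were called lower and 24.2% were called higher. The median change of the 10 genes was -1.16, against -0.03 over all genes. For 6 of them every pnd2 array lay below every gd11 array, and for Sox18 every pnd2 array lay above. Such separation occurred downward in 22% and upward in 22.5% of all genes. The ranges of Kdr, Vwf and Cdh5 overlapped. All 10 genes passed the F-test over the 6 stages, as did 68.3% of all genes.

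**Figure D1:**
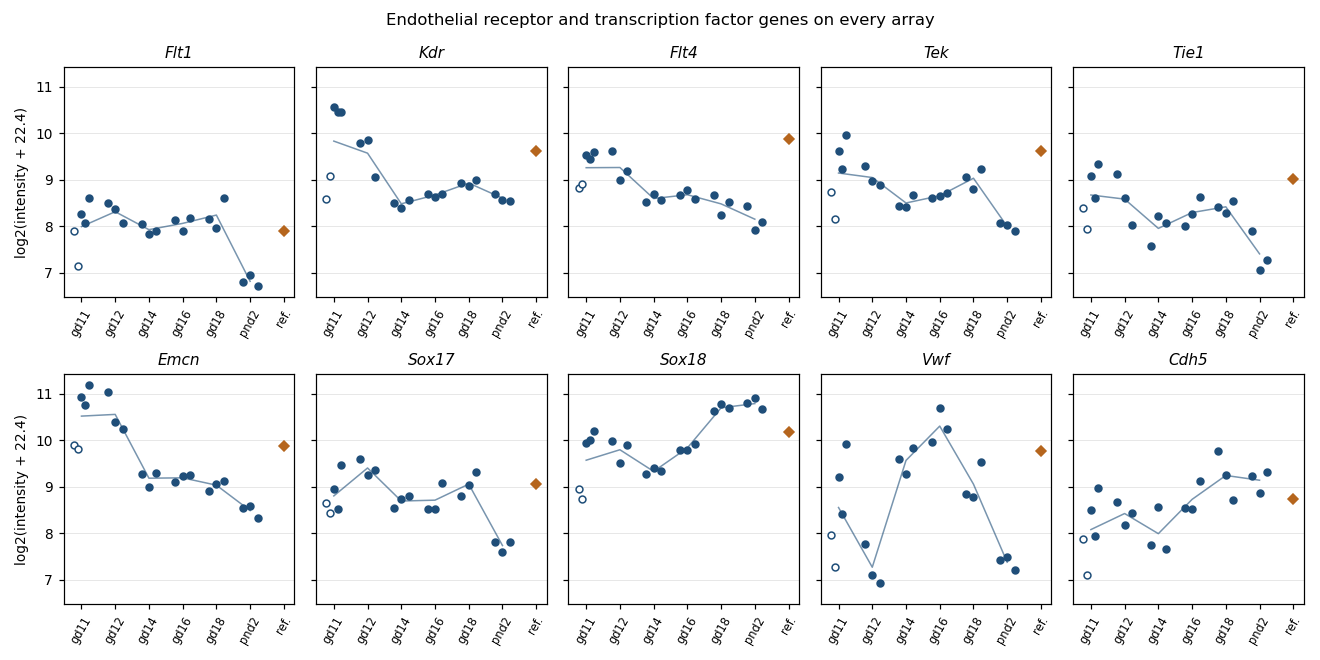
Level of each of the 10 genes on every array as log2(intensity + 22.4), with stages from gd11 to pnd2 along the x axis and the newborn reference last. Points are arrays, lines join stage means, open circles are gd11 replicates 16 and 17 and the diamond is the reference. Sox18 and Cdh5 end higher than they start, Vwf has its highest mean at gd16, and the other 7 genes are lower at pnd2 than at gd11.

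The gd11 arrays were not alike for these genes. Replicates 16 and 17, the 2 high in neural genes, lay below the other 3 for 9 of the 10 genes, the exception being Sox17. Kdr, for example, read 362 and 520.2 on these 2 arrays, against 1384 to 1492 on the other 3. Without them, every fall from gd11 to pnd2 was larger, such as -1.89 (adjusted p = 7.06e-09) for Kdr in place of -1.23 and -2.47 (adjusted p = 4.07e-10) for Emcn in place of -2.03. Both rises became smaller: Sox18 changed by 0.74 (adjusted p = 4.04e-05) in place of 1.22, and Cdh5 by 0.67 (adjusted p = 0.0636) in place of 1.06, which was no longer a call. The number of calls between gd11 and pnd2 was then 9.

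Promoters of genes that were lower at pnd2 than at gd11 are shown because the sequences that endothelial factors of the ETS and SOX families bind can be read there. RefSeq's promoter table (build GRCm38.p6) held 6 of the 10 genes, namely Flt1, Kdr, Flt4, Tek, Tie1 and Emcn, and the 4 with a match are printed as the 250 bases before the start of the gene, 5′ to 3′ on the gene's strand. They lie at chr5:147726012-147726261 (minus strand) for Flt1, chr4:94739039-94739288 (plus strand) for Tek, chr4:118489850-118490099 (minus strand) for Tie1 and chr3:137340828-137341077 (plus strand) for Emcn. Capitals mark matches, on either strand, to the ETS words AGGAAG and CGGAAG, to ACAGGAA (part of a combined forkhead and ETS site) and to the SOX words AACAAAG and AACAATG.
Flt1: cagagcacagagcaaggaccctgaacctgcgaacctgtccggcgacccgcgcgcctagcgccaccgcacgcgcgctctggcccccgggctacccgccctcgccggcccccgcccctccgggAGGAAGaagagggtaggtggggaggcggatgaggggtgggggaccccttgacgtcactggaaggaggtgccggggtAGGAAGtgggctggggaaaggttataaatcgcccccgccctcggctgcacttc
Tek: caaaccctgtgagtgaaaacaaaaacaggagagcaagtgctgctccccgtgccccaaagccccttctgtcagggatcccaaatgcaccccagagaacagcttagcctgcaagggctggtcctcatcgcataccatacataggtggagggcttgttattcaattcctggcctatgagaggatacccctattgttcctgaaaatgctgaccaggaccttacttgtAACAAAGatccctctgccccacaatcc
Tie1: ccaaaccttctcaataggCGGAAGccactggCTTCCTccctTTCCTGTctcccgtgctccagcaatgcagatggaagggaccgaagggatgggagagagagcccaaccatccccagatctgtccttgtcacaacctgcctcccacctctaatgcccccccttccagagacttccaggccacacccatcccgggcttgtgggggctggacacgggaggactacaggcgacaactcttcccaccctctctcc
Emcn: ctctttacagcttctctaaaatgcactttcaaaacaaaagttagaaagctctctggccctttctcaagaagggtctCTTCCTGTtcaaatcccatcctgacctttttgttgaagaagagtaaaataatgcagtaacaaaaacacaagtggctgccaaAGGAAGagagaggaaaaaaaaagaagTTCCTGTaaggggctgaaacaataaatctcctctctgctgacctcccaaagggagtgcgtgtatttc
Flt1 held AGGAAG at 129 and 53 bases before its start, and Tek held AACAAAG at 27 bases. Tie1 held CGGAAG at 232 bases and, on the other strand, AGGAAG at 219 and ACAGGAA at 209 bases. Emcn held AGGAAG at 174 bases on the other strand, overlapping ACAGGAA at 173, and again at 93 bases on its own strand, with a further ACAGGAA at 67 bases on the other strand. In the windows of Kdr and Flt4 none of these words occurred, and the GATA word AGATAA was in none of the 6. Among all 32851 promoter windows of the same length, 39.2% held either ETS word, 7.2% held ACAGGAA, 8.12% held either SOX word and 9.99% held AGATAA. A match is a description of the letters and does not show that a factor binds.

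Of the VEGF receptor genes, Flt1 showed no called change between adjacent fetal stages and was lowest after birth. It read 215, 119, 284, 246 and 367 on the gd11 arrays, 338, 308 and 248.5 at gd12, 243, 206 and 216 at gd14 and 258, 215 and 265 at gd16. The gd18 arrays read 264, 226 and 367 and the pnd2 arrays 88.6, 101 and 82.1. All 3 pnd2 arrays were below all 17 fetal arrays. Flt1 fell by 1.43 ± 0.27 (SE, adjusted p = 0.00354) in pnd2 testes against gd18 testes, a 2.69-fold difference, and by 1.18 ± 0.24 (SE, adjusted p = 0.000435) against gd11 testes.

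Flt1 is read by 4 probe sets, of which 2 gave a called fall. The one used above, 1451756_at, has the highest signal. Probe set 1440926_at also fell, by 1.10 ± 0.26 (SE, adjusted p = 0.0163) between gd18 and pnd2, while 1419300_at changed by -1.15 ± 0.35 (SE, adjusted p = 0.0628) and 1454037_a_at by -0.50 ± 0.34 (SE, adjusted p = 0.425), neither of them a call. In pnd2 against gd11 testes, 1440926_at changed by -0.92 ± 0.23 (SE, adjusted p = 0.00269), 1419300_at by -0.75 ± 0.32 (SE, adjusted p = 0.0604) and 1454037_a_at by 0.10 ± 0.30 (SE, adjusted p = 0.808). With all arrays, the fall of Flt1 from gd11 to pnd2 was thus called on 2 of the 4 probe sets. On 1454037_a_at, gd11 replicates 16 and 17 read 67 and 72, the other gd11 arrays 107.1 to 232.6 and the pnd2 arrays 111.5 to 160. On 1419300_at, gd11 replicates 16 and 17 read 106.7 and 65.4 and the other gd11 arrays 209.7 to 255.7. The probe sets were not refitted without these 2 arrays. Flt1 has full-length transcripts and shorter ones that encode a soluble receptor. Which forms each probe set reads was not analysed here.

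**Figure D2:**
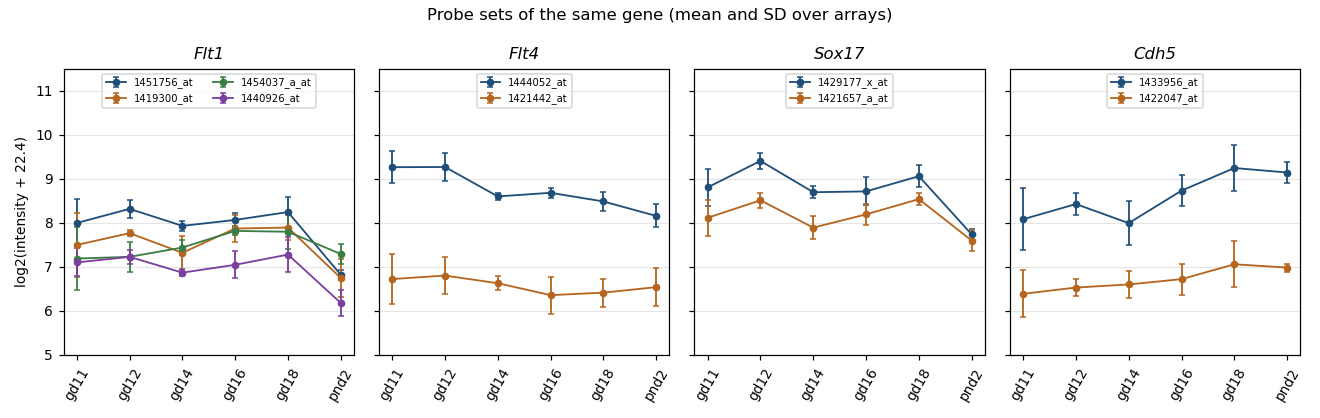
Stage means of log2(intensity + 22.4) with SD over arrays (5 at gd11, 3 at each later stage) for every probe set of the 4 genes that have several. Both Sox17 probe sets and 3 of the 4 Flt1 probe sets have their lowest mean at pnd2, and 1 probe set of Flt4 and 1 of Cdh5 are dim.

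Kdr had its highest stage mean at gd11. Its gd11 arrays read 362, 520.2, 1492, 1384 and 1394 and its gd12 arrays 863.5, 909 and 513. From gd14 on it stayed between 316 and 490.2, with 337, 316 and 355 at gd14, 392, 373 and 393 at gd16, 463, 444 and 490.2 at gd18 and 391, 359 and 353 at pnd2. The change in gd12 against gd11 testes, -0.26 ± 0.34 (SE, adjusted p = 0.635), was no call, but it was -0.92 (adjusted p = 0.000336) without gd11 replicates 16 and 17. Every gd12 array was above every gd14 array. The change in gd14 against gd12 testes, -1.09 ± 0.38 (SE, adjusted p = 0.0517), just missed the threshold, and without gd11 replicates 16 and 17 the same step was called, at -1.09 (adjusted p = 5.05e-05). Against gd11, pnd2 testes were lower by 2.34-fold, a change of -1.23 ± 0.34 (SE, adjusted p = 0.00563). Replicate 16 of gd11, at 362, lay within the range of the pnd2 arrays, 353 to 391, and the other 4 gd11 arrays lay above it.

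Flt4 fell by 0.67 ± 0.21 (SE, adjusted p = 0.0316) in gd14 testes against gd12 testes, with 346.5, 392 and 357 on the gd14 arrays and 759, 489 and 559 on the gd12 arrays. No array of gd14 reached the gd12 range. Leaving out gd12 replicate 13 gave -0.49 (adjusted p = 0.153), and the call was also lost when replicate 15 of gd12 or any 1 gd14 array was left out (adjusted p from 0.0544 to 0.0946). It averaged 265 ± 53.4 at pnd2 (SD, n = 3) and 606 ± 148 at gd11 (n = 5), a change of -1.11 ± 0.19 (SE, adjusted p = 7.18e-05). Its other probe set, 1421442_at, is dim (73.4 at pnd2 and 89.3 at gd11) and changed by -0.18 ± 0.31 (SE, adjusted p = 0.669), so the fall of Flt4 rests on 1 probe set. On 1421442_at, gd11 replicates 16 and 17 read 138.3 and 118.2 and the other gd11 arrays 41.7 to 92.2.

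Both Tie receptor genes had their highest stage mean at gd11 and their lowest at pnd2. Tek averaged 599 ± 284 at gd11 (SD, n = 5), 341 ± 37.1 at gd14, 505 ± 76.6 at gd18 and 233 ± 16 at pnd2 (n = 3 each). Its pnd2 arrays read 245, 240.4 and 215, against 510.2, 427 and 579.6 on the gd18 arrays, without overlap. That fall of 2.05-fold was called (-1.04 ± 0.30 SE, adjusted p = 0.04), but it lost the call in 12 of 31 alternatives, among them leaving out any 1 array of pnd2, gd18 or gd16 (adjusted p up to 0.143). Tie1 read 215, 110.2 and 133 at pnd2 and 319.7, 292 and 351 at gd18, also without overlap, and its change of -1.01 ± 0.33 (SE, adjusted p = 0.0635) was not called. Without gd11 replicates 16 and 17 it was called (adjusted p = 0.0197). Tek then also fell in gd12 against gd11 testes, at -0.56 (adjusted p = 0.0235) in place of -0.10, and in gd14 against gd12 testes, at -0.55 (adjusted p = 0.0225). Between gd11 and pnd2, Tek changed by -1.15 ± 0.27 (SE, adjusted p = 0.00155) and Tie1 by -1.27 ± 0.29 (SE, adjusted p = 0.00139).

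Between gd11 and pnd2, Emcn fell furthest of the 10. Its gd11 arrays read 933, 876, 1920.2, 1717 and 2316 and its gd12 arrays 2074, 1326 and 1183. At gd14 the arrays read 596, 486 and 603, at gd16 525, 578 and 585.5, at gd18 461, 513 and 533 and at pnd2 349, 362 and 301. The early and the later stages did not overlap: every array from gd14 on was below every gd11 and gd12 array. Most of the fall lay in 1 step, 2.59-fold lower in gd14 testes than in gd12 testes (-1.37 ± 0.28 SE, adjusted p = 0.00205). On gd12 replicate 13, the adrenal-high array, Emcn was at 2074, the highest of the gd12 arrays. With only gd12 replicate 15 left for that stage, and its spread taken from the other stages, the step was -1.05 (adjusted p = 0.115). The call held when any single array was left out, replicate 13 included. In pnd2 testes Emcn was 4.09-fold lower than in gd11 testes (-2.03 ± 0.25 SE, adjusted p = 1.87e-06). The change in pnd2 against gd18 testes, -0.55 ± 0.28 (SE, adjusted p = 0.253), became a call without gd11 replicates 16 and 17 (adjusted p = 0.0354).

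Sox17 and Sox18, both of the SoxF group of factors, went opposite ways between gd11 and pnd2. On the probe set used, Sox17 had its highest stage mean at gd12. Sox17 was not called different in gd18 against gd12 testes (-0.35 ± 0.22 SE, adjusted p = 0.252). It read 752, 588 and 634 on the gd12 arrays, against 377.5, 325, 472.5, 343.5 and 684 on the gd11 arrays, a rise of 0.60 ± 0.20 (SE, adjusted p = 0.0388) that lost its call under 12 of 31 alternatives, among them leaving out any 1 gd12 array or gd11 replicate 16, 17 or 19 (adjusted p from 0.058 to 0.133). Without both gd11 replicates 16 and 17 the rise was 0.43 (adjusted p = 0.159). At gd14 it was lower than at gd12, with 349, 406 and 423 and a change of -0.71 ± 0.22 (SE, adjusted p = 0.0327) that was no call without gd12 replicate 13 or 15 or any 1 gd14 array (adjusted p from 0.0563 to 0.116). It read 203, 170 and 201 at pnd2, against 426, 504 and 616 at gd18, a 2.5-fold fall (-1.32 ± 0.22 SE, adjusted p = 0.00187). The 3 pnd2 arrays were the lowest of the 20. The probe set used for Sox17, 1429177_x_at, carries a suffix for probes that can also match other transcripts. The second, 1421657_a_at, averaged 343 at gd12 and 350 at gd18, its highest stage mean. It changed by -0.94 ± 0.23 (SE, adjusted p = 0.02) between gd18 and pnd2. In pnd2 against gd11 testes it changed by -0.52 ± 0.20 (SE, adjusted p = 0.0444) in the fit over all probe sets, and its adjusted p was 0.0501 in a fit over genes in which it stood for Sox17. Its changes in gd14 against gd12 testes, -0.62 ± 0.23 (SE, adjusted p = 0.0708), and in gd12 against gd11 testes, 0.40 ± 0.20 (SE, adjusted p = 0.182), were not called. The call shared by both probe sets under both fits was the fall from gd18 to pnd2.

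Sox18 read 472, 407, 964.5, 1006 and 1155 at gd11, 987, 702 and 936 at gd12 and 592, 651 and 621 at gd14. It read 865, 864 and 944 at gd16, 1554, 1734 and 1629 at gd18 and 1754, 1890.1 and 1604 at pnd2. The gd18 and pnd2 arrays together lay above all 14 earlier arrays. Between gd11 and pnd2 the gene rose by 1.22 ± 0.25 (SE, adjusted p = 0.000422). The steps from gd14 to gd16, 0.50 ± 0.27 (SE, adjusted p = 0.264), and from gd16 to gd18, 0.86 ± 0.27 (SE, adjusted p = 0.0784), were not called. Without gd11 replicates 16 and 17 both passed the threshold, at 0.50 (adjusted p = 0.00777) and 0.86 (adjusted p = 0.000258), as did the fall in gd14 against gd12 testes, -0.47 (adjusted p = 0.00713).

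Vwf had the widest course, with a log2 range of 3.03 between its highest stage, gd16, and its lowest, gd12. Its gd11 arrays were spread from 131 to 943, and the gd12 arrays read 195, 115 and 99.9. It then read 751.5, 598 and 883 at gd14, 980, 1631 and 1196 at gd16, 434, 419.8 and 723 at gd18 and 149.8, 158 and 125 at pnd2. The gd12 and pnd2 arrays did not overlap with those of gd14, gd16 or gd18. The widest called fall of Vwf was in pnd2 testes against gd16 testes, 7.61-fold (-2.93 ± 0.45 SE, adjusted p = 0.000148). The change in gd18 against gd16 testes, -1.25 ± 0.45 (SE, adjusted p = 0.129), became a call without gd11 replicates 16 and 17 (adjusted p = 0.0149). Vwf rose 4.91-fold in gd14 testes against gd12 testes (2.30 ± 0.45 SE, adjusted p = 0.00161) and kept this call in all 31 alternatives. It fell 3.2-fold in pnd2 testes against gd18 testes (-1.68 ± 0.45 SE, adjusted p = 0.0289), a call lost when any 1 pnd2 or gd18 array was left out (adjusted p up to 0.129). The gd12 level was below that of gd11 by 1.28 ± 0.40 (SE, adjusted p = 0.0297), and without gd11 replicates 16 and 17 the change was -1.91 (adjusted p = 0.000196). It was no call without gd12 replicate 14 or 15 or gd11 replicate 18 or 20 (adjusted p from 0.0541 to 0.134). Between gd11 and pnd2 it changed by -1.18 ± 0.40 (SE, adjusted p = 0.0216), with overlapping ranges, or by -1.80 (adjusted p = 6.82e-05) without gd11 replicates 16 and 17, and lost the call without pnd2 replicate 1 or 3 or gd11 replicate 18 (adjusted p from 0.0512 to 0.0744).

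Megakaryocytes also make Vwf, so their genes stand beside it. None of the 7 measured megakaryocyte and platelet genes was called higher in gd14 against gd12 testes and 2 were called lower, the chemokine genes Pf4 and Ppbp. Over all genes, 11.4% were called higher and 7.34% lower at that step. The summed intensity of the 7 was 1289 to 1399 at gd12, 774 to 1075 at gd14 and 819 to 1274 at gd16. Gp9, which encodes a platelet receptor subunit, was near background at every stage. All 7 were lower at pnd2 than at gd11, with a median change of -1.42, where 24.4% of all genes were called lower.

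Cdh5 read 212, 116, 338, 223.5 and 479 at gd11, 387, 265 and 321 at gd12 and 191.5, 356 and 181 at gd14. At gd16 it read 349, 344 and 537, at gd18 847, 587 and 397 and at pnd2 579, 446 and 614. Arrays of adjacent stages overlapped throughout, and no adjacent change was called. The rise in pnd2 testes against gd11 testes, 1.06 ± 0.33 (SE, adjusted p = 0.0113), was not a call without gd11 replicates 16 and 17, nor with the dim probe set 1422047_at, which changed by 0.60 ± 0.29 (SE, adjusted p = 0.107). On 1422047_at, gd11 replicates 16 and 17 read 40.2 and 28.6, the other gd11 arrays 76.5 to 95.3 and the pnd2 arrays 99 to 113.3.

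**Figure D3:**
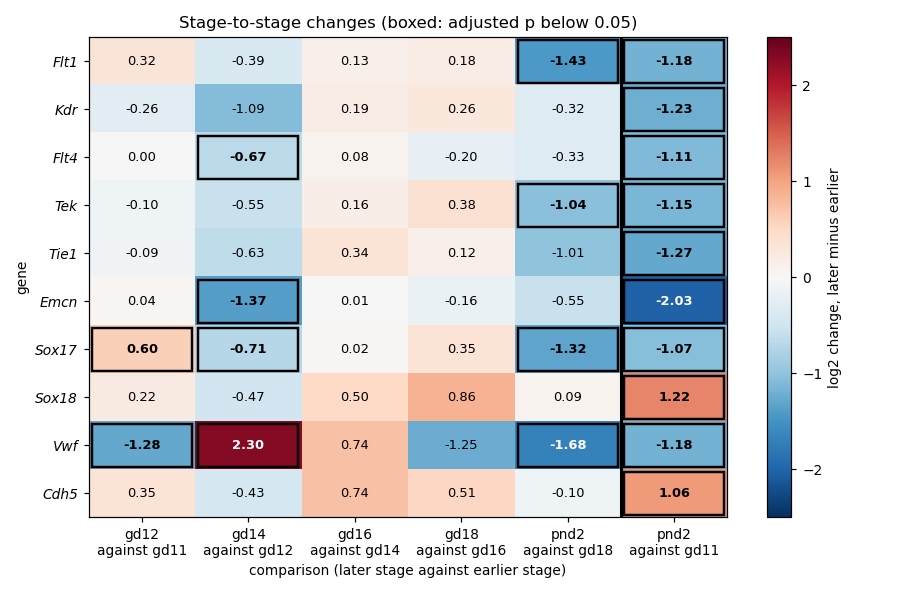
Log2 change, later minus earlier stage, of the 10 genes (rows) in the 5 adjacent comparisons and in pnd2 against gd11 (columns). Red is higher and blue lower in the later stage, and boxed bold values passed the test. Calls fall in the steps at gd12, at gd14 and at pnd2.

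With all arrays in the fit, the calls between adjacent stages lay at 3 transitions. In gd12 against gd11 testes, 1 gene rose (Sox17) and 1 fell (Vwf), where 11.2% of all genes were called higher and 10.2% lower. With gd11 replicates 16 and 17 left out the calls were 3 falls, of Kdr, Tek and Vwf, and Sox17 was not among them. In gd14 against gd12 testes, 3 fell (Flt4, Emcn and Sox17) and 1 rose (Vwf), against 7.34% lower and 11.4% higher over all genes. Mesonephros and duct genes also summed lower on every gd14 array than on any gd12 array. Leaving out gd11 replicates 16 and 17 gave 7 calls at that step, with Kdr, Tek and Sox18 added as falls. Without gd12 replicates 13 and 14 (replicate 14 is the gd12 array highest in erythroid genes) it gave 1 call, for Vwf, and the step before it gave 0. No gene was called in gd16 against gd14 testes, where limma called 5.39% of all genes higher and 4.99% lower, and none of the 10 had an unadjusted p under 0.05. In gd18 against gd16 testes none was called either, beside 1.7% of all genes higher and 3.18% lower, and 2 had an unadjusted p under 0.05. Sox18 was called at both of these steps, and Vwf at the later one, without gd11 replicates 16 and 17. In pnd2 against gd18 testes 4 fell (Flt1, Tek, Sox17 and Vwf) and none rose, against 5.26% lower and 2.54% higher over all genes. Tie1 and Emcn were added without gd11 replicates 16 and 17. For the fits with arrays left out, the share of all genes called was not counted, so their counts have no such share beside them. Of the 50 pairs of stages that neighbour each other in the order of a gene's levels, 5 differed: Flt1 and Sox17 between gd14 and pnd2, Flt4 and Emcn between gd11 and gd16, and Vwf between gd11 and pnd2. Other neighbours did not pass the test.

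A second scale set each gene against the mean log2 level of 28 other endothelial genes on the same array, a mean that was 8.29 at pnd2 and 8.79 at gd11. On this scale unequal change within the endothelial genes can be seen. It shows no gene to be constant. Between gd11 and pnd2, 7 of the 10 genes were lower and 2 were higher, where 5.51% of all genes were called lower and 41.2% higher on it. Emcn (-1.53 ± 0.18 SE, adjusted p = 1.32e-07), Sox18 (1.72 ± 0.18 SE, adjusted p = 3.79e-08) and Cdh5 (1.57 ± 0.27 SE, adjusted p = 4.9e-05) departed most from the other endothelial genes. The 3 VEGF receptor genes changed by -0.60 to -0.72, Tek by -0.65, Tie1 by -0.76 and Sox17 by -0.56. Vwf, at -0.67 ± 0.28 (SE, adjusted p = 0.0545), was not called. All 10 genes were called without gd11 replicates 16 and 17, with Vwf at -1.04 (adjusted p = 0.000516), Kdr at -1.13 (adjusted p = 7.69e-06) in place of -0.72, and Flt1 and Flt4 at -0.74 and -0.61. Without pnd2 replicate 2 the calls on this scale numbered 5, with Kdr, Flt4, Tie1 and Sox17 lost (adjusted p from 0.0577 to 0.0679). Kdr was also no call without pnd2 replicate 1 or 3 or gd11 replicate 18 or 19 (adjusted p from 0.0551 to 0.0653).

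On the same scale, Vwf was also lower in gd12 against gd11 testes (-1.41 ± 0.28 SE, adjusted p = 0.00179). With gd11 replicates 16 and 17 left out, Kdr was called lower there, at -0.80 (adjusted p = 0.00363), and Sox17 higher, at 0.56 (adjusted p = 0.045). In gd14 against gd12 testes, Vwf (2.71 ± 0.32 SE, adjusted p = 2.03e-06) and Emcn (-0.96 ± 0.20 SE, adjusted p = 0.00144) were called, Emcn not without gd12 replicates 13 and 14 (adjusted p = 0.163). Kdr, at -0.68 ± 0.28 (SE, adjusted p = 0.0813), was not, but it was called without gd11 replicates 16 and 17 (adjusted p = 0.00539), without gd11 replicate 16 alone (0.0287), without gd12 replicate 15 (0.0496), with array weights (0.0018) and in a fit on the 2 stages (0.0232). In gd18 against gd16 testes Vwf was lower (-1.42 ± 0.32 SE, adjusted p = 0.0256), a call lost without gd18 replicate 4 or 5 or any 1 gd16 array (adjusted p from 0.0557 to 0.263). Sox18 was higher at that step without gd11 replicates 16 and 17, at 0.69 (adjusted p = 0.00897). In pnd2 against gd18 testes Sox18 was higher (0.63 ± 0.21 SE, adjusted p = 0.0342), while Flt1 (-0.88 ± 0.23 SE, adjusted p = 0.016), Sox17 (-0.78 ± 0.20 SE, adjusted p = 0.0156) and Vwf (-1.14 ± 0.32 SE, adjusted p = 0.0202) were lower. These 4 calls were each lost without pnd2 replicate 3 or gd18 replicate 6 (adjusted p from 0.0503 to 0.141), those of Sox17, Sox18 and Vwf also without pnd2 replicate 2, and that of Sox18 also without gd18 replicate 4 or 5. Tek was called lower there without gd11 replicates 16 and 17, at -0.50 (adjusted p = 0.02).

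**Figure D4:**
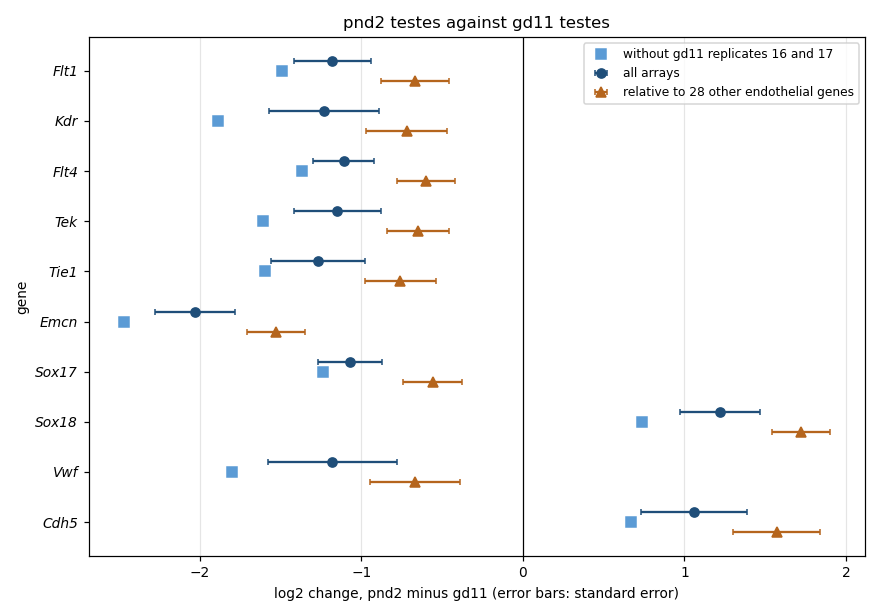
Log2 change in pnd2 testes against gd11 testes for each gene with all arrays, without gd11 replicates 16 and 17, and relative to the 28 other endothelial genes. Error bars are standard errors and are drawn for the fits on all 20 arrays. Sox18 and Cdh5 lie right of 0 and the other 8 left of it in all 3 forms.

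The ligands of these receptors did not share 1 course. Of 8 ligand genes, 3 were lower at pnd2 than at gd11 and 1 was higher, with a median change of -0.39. Among all genes, 24.4% were called lower and 24.2% higher in that comparison. With gd11 replicates 16 and 17 left out, 5 were lower and 1 higher, with a median change of -1.03. Vegfa, which encodes the ligand of Flt1 and Kdr, averaged 765 ± 150 at gd11 (SD, n = 5), 1310 ± 132 at gd12 and 360 ± 79.5 at pnd2 (n = 3 each). It rose in gd12 against gd11 testes by 0.78 (adjusted p = 0.00351) and fell in gd14 against gd12 testes, -0.68 (adjusted p = 0.0183), and in pnd2 against gd18 testes, -1.10 (adjusted p = 0.00243). The rise depended on the probe set: with the dimmest probe set of Vegfa the sign turned and no change was called. The 2 ligand genes of Flt4 went opposite ways. Vegfc averaged 119 ± 9.31 at pnd2 and 558 ± 329 at gd11, a change of -1.88 (adjusted p = 8.65e-05), and Vegfd averaged 884 ± 338 at pnd2 and 142 ± 51.2 at gd11, a change of 2.46 (adjusted p = 4.71e-07). For Vegfd most of it came in gd12 against gd11 testes, 1.94 (adjusted p = 6.26e-05).

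Angpt1, which encodes the activating ligand of Tek, averaged 117 ± 17.7 at pnd2 and 781 ± 244 at gd11, with -1.64 (adjusted p = 0.00438) already in gd12 against gd11 testes. Angpt2, whose product can oppose Angpt1, changed by -0.42 (adjusted p = 0.385) between gd11 and pnd2, Angpt4 by 0.44 (adjusted p = 0.162), Vegfb by 0.06 (adjusted p = 0.714) and Pgf by -0.36 (adjusted p = 0.508), none of them a call. Without gd11 replicates 16 and 17, Angpt2, at -1.04 (adjusted p = 0.00482), and Pgf, at -1.02 (adjusted p = 0.00398), were lower. Angpt4, at 0.14 (adjusted p = 0.671), and Vegfb, at 0.12 (adjusted p = 0.505), were still not called without these arrays. Vegfb was lower in pnd2 against gd18 testes, -0.48 (adjusted p = 0.0499). The neuropilin genes Nrp1 and Nrp2, which encode co-receptors of the VEGF receptors, both fell in gd12 against gd11 and again in gd14 against gd12 testes, though for Nrp2 the earlier change was -0.62 (adjusted p = 0.0763) without gd11 replicates 16 and 17. Nrp2 averaged 203 ± 54.6 at pnd2 and 1340 ± 487 at gd11, a change of -2.55 (adjusted p = 1.86e-07). Nrp1 also rose in gd18 against gd16 testes, 0.68 (adjusted p = 0.0296), and was -0.87 (adjusted p = 0.000134) over the whole period. Ligands and neuropilins are made by many cell types, and the source in these whole organs was not tested.

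Other vessel genes moved in both directions too. Of the 28 other endothelial genes, 15 were lower and 5 higher in pnd2 against gd11 testes (median change -0.58), 8 were lower and none higher in gd14 against gd12 testes, and 9 were lower and 1 higher in pnd2 against gd18 testes. Over all genes, the shares in the same order were 24.4% lower and 24.2% higher, 7.34% lower and 11.4% higher, and 5.26% lower and 2.54% higher. Without gd11 replicates 16 and 17, 22 were lower and 4 higher in pnd2 against gd11 testes, 13 were lower in gd14 against gd12 testes, and 12 were lower and 1 higher in pnd2 against gd18 testes. Plvap, which encodes a protein of fenestrae and caveolae, averaged 167 ± 9.82 at pnd2 and 1540 ± 543 at gd11, a change of -2.97 (adjusted p = 1.32e-09). The ETS factor gene Fli1 changed by -2.54 (adjusted p = 3.41e-07). Acvrl1, which encodes an endothelial receptor of the TGF-beta family, rose by 2.16 (adjusted p = 2.88e-07), to 715 ± 71.3 at pnd2, against 143 ± 27.9 at gd11.

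Of 11 arterial genes measured, 6 were lower and none higher at pnd2 than at gd11. Over all genes, 24.4% were called lower and 24.2% higher there, shares that also stand beside the venous and lymphatic counts with all arrays. The Notch target genes Hey1 and Hey2 changed by -2.16 (adjusted p = 2.29e-10) and -2.46 (adjusted p = 4.51e-06), and the ephrin gene Efnb2 by -1.91 (adjusted p = 7.56e-09). The 11 arterial genes summed to 10621 and 9430 on gd11 replicates 16 and 17, against 8195 to 11163 on the other gd11 arrays. The cells that gave the arterial signal in these whole organs were not tested. Of 3 venous genes, Aplnr, the apelin receptor gene, fell by 2.28 (adjusted p = 6.53e-09) and by 1.45 (adjusted p = 0.000457) in pnd2 against gd18 testes. The other two were not called, and 1 of them, Ephb4, was called lower without gd11 replicates 16 and 17. None of 4 lymphatic genes was called between gd11 and pnd2, and without those 2 arrays 2 were called higher, Pdpn and Reln. The 4 genes summed to 3029 and 1986 on gd11 replicates 16 and 17, against 885 to 963 on the other gd11 arrays. The 28 other endothelial genes went the other way, with 11344 and 10557, against 15391 to 20964. Which cells the lymphatic list reads in these organs was not tested. Ephb4 and Pdpn were named after their values were seen. Lyve1, also made by macrophages, averaged 459 ± 55.9 at pnd2 and 197 ± 100 at gd11, a change of 1.27 (adjusted p = 0.0531). Without gd11 replicates 16 and 17 the change of Lyve1 was 0.74 (adjusted p = 0.263). Reln rose in gd14 against gd12 testes, 1.36 (adjusted p = 0.0446). In pnd2 against gd11 testes it changed by 0.67 (adjusted p = 0.19), or by 1.39 (adjusted p = 0.000162) without gd11 replicates 16 and 17. Prox1, the defining factor gene of lymphatic endothelium, was near background at every stage.

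Of 8 pericyte genes, 2 were higher and 2 lower at pnd2 than at gd11, near the shares over all genes, 24.2% higher and 24.4% lower. The channel subunit gene Abcc9 rose by 2.34 (adjusted p = 1.77e-06) and the proteoglycan gene Cspg4 by 1.47 (adjusted p = 5.78e-05). Rgs5, a regulator of G protein signalling, fell in gd12 against gd11 testes, -1.65 (adjusted p = 0.00354), and was highest at gd18, at 2070 ± 182.

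Genes of other cells changed over the same stages. The summed intensity of 9 erythroid genes, led by embryonic globins, was 521 to 576 at pnd2 and 82079 to 89081 at gd11. That of 7 megakaryocyte and platelet genes was 774 to 980 at pnd2 and 2227 to 3407 at gd11, that of 11 macrophage genes 4631 to 5546 at pnd2 and 2625 to 4550 at gd11, and that of 5 mesonephros and duct genes 529 to 627 at pnd2 and 2644 to 8012 at gd11. The 28 other endothelial genes summed to 12395 to 14744 at pnd2 and 10557 to 20964 at gd11. Called between gd11 and pnd2 were 7 erythroid genes lower and 1 higher, 3 of 11 macrophage genes higher, 4 of 5 mesonephros and duct genes lower and 9 of 11 neural genes lower. Of 8 adrenal genes 2 were higher and 3 lower, of 9 muscle genes 1 was higher and 6 were lower, and of 5 liver genes 2 were higher. Over all genes, 24.2% were called higher and 24.4% lower in this comparison. Without gd11 replicates 16 and 17, 8 neural genes were lower and 1 higher, 2 macrophage genes were higher, 2 adrenal genes were higher and 2 lower, 1 muscle gene was higher and 3 were lower, and 2 liver genes were higher and 1 was lower. The erythroid gene Epb42 and the liver gene Alb were near background at every stage. The part of these cells in the changes of the 10 genes was not tested.

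**Figure D5:**
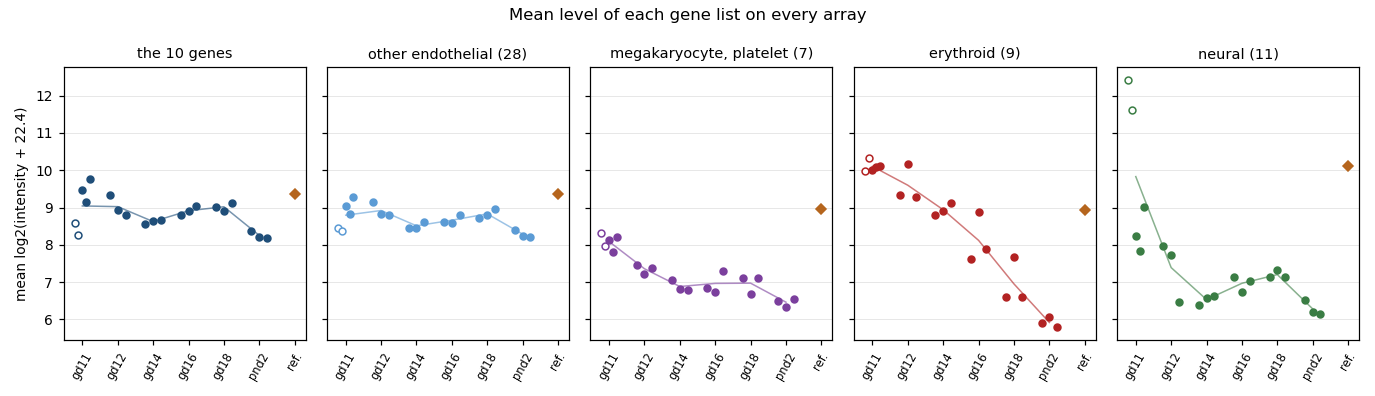
Mean log2(intensity + 22.4) of the 10 genes and of 4 gene lists on every array, with the number of genes measured in brackets. Points are arrays, lines join stage means, open circles are gd11 replicates 16 and 17 and the diamond is the newborn reference. The 10 genes vary less than the erythroid list, whose stage means fall from gd11 to pnd2, and the open circles stand highest in the neural panel.

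Pairs of the 10 genes ranged from opposed to closely parallel. Pearson correlations between pairs, over 20 arrays that share their stages, ran from -0.34 to 0.94 with a median of 0.47 over 45 pairs. For deviations from stage means the median was 0.72, and without gd11 it was 0.38. Outside the 10, the genes most like their mean standardised course over the 20 arrays were Nos3 (r = 0.924), Icam2 (0.921), Clec14a (0.889), Egfl7 (0.888), Kirrel (0.886), Ecscr (0.883), Adgrf5 (0.866), 2810002D19Rik (0.863), 2610008E11Rik (0.849) and Hand2 (0.847). Of these, 6 were on the list of other endothelial genes. The mean course joins genes that fell with Sox18 and Cdh5, which rose. On gd11 replicates 16 and 17 the mean log2 level of the 10 genes was 8.58 and 8.26, against 9.14 to 9.77 on the other gd11 arrays. The ranking was not recomputed without these replicates.

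Set against the single array of whole newborns, which allows no test, 8 of the 10 genes were lower in pnd2 testes, as were 25 of the 28 other endothelial genes and 45.2% of all genes. Vwf differed most, with 149.8, 158 and 125 on the pnd2 arrays, against 852 on the reference array (a log2 difference of -2.40). Flt4 followed, with a mean of 265 at pnd2, against 919 on the reference (-1.73). Sox18 averaged 1750 ± 143 at pnd2 (SD, n = 3), against 1130.2 on the reference (0.62), and Cdh5 547 ± 88.5, against 404 (0.40). The SD of the pnd2 arrays on this scale was 0.23 for Cdh5 and 0.12 for Sox18.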

How the data were processed

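Whole testes were measured on 20 oligonucleotide arrays and 1 newborn reference array. The deposited values are linear intensities per probe set, made by the authors with GCOS, per the submitters' processing notes. The version and algorithm of GCOS are not given in the sources consulted. The trimmed mean of every array was 499.9 to 500, so no further normalization was applied. Gene names came from the platform annotation: 34945 of the 45101 probe sets had a single gene, 932 had several genes and 9160 had no gene. Intensities were transformed to log2(intensity + 22.4), the 20th percentile of the testis values. A probe set was kept if 3 or more arrays had it above the array's 40th percentile, and the one with the highest mean stood for its gene. All 20 testis arrays entered 1 fit of limma 3.58.1 in R 4.3.3 with 6 stage means, an intensity trend and 1 spread per gene (14 residual and 4.94 prior degrees of freedom), with Benjamini-Hochberg adjustment over 14338 genes per comparison. The same fit was run relative to the mean of 28 other endothelial genes and over 26713 probe sets. Data were simulated with normal noise and no stage effect, except in 66 or 67 genes for each size of change at pnd2. In them, the gene fit for pnd2 against gd11 recovered 28.4% of 1.5-fold, 70.1% of 2-fold and 87.9% of 4-fold changes, with 3 false calls. In the real comparison 24.2% of genes were called higher and 24.4% lower. The adjustment then sets another cut-off, so these recovered shares do not carry over to it. Changes of 1.5-fold to 2-fold can go uncalled, and how often they do in the real data was not measured. The reference entered no test. Alternatives were other pseudocounts, filters, normalization, probe set choice, variance settings and arrays left out. No batch is named in the labels. With pools at gd11 and gd12, the spread is between pools, and per the series' design text each sample came from its own dam. The 10 genes and all gene lists (other endothelial, ligands, co-receptors, arterial, venous, lymphatic, pericyte and other cells) were chosen with earlier results of these data known. Named were all 10 genes, ligands and co-receptors, up to 3 genes with the widest stage range among those passing the F-test in each other vessel list, and the 10 genes most like the members' mean. Comparisons that share a stage are not independent of each other.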

Additional observations from a re-analysis of the deposited data

How the results depend on the processing

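The 20 called changes of the 10 genes were recomputed under 31 alternatives each: 560 kept their call and direction, 60 lost the call and none reversed. Never lost were the change of Vwf in gd14 against gd12 testes, those of Flt1 and Sox17 in pnd2 against gd18 testes, and those of Flt1, Tek, Tie1, Emcn and Sox18 in pnd2 against gd11 testes. For Flt1 these alternatives used 2 of its 4 probe sets, and the other two gave no call. Tek, Tie1, Emcn, Sox18 and Vwf have a single probe set each, so the choice of probe set was no check for them. Arrays outside the stages compared change only the spread. The causes of lost calls were not tested. In gd12 against gd11 testes, where 2 of the 10 genes were called, no filter, the probe set with the lowest mean and array weights each gave 1. A fit on the arrays of the 2 stages compared gave 0, as did leaving out gd12 replicates 13 and 14. Leaving out gd11 replicates 16 and 17 gave 3, with Kdr at -0.92 in place of -0.26, and leaving out single arrays gave 0 to 2. In gd14 against gd12 testes (4 calls), the probe set with the lowest mean gave 2, leaving out gd11 replicates 16 and 17 gave 7, leaving out gd12 replicates 13 and 14 gave 1, and single arrays gave 2 to 5. In gd16 against gd14 testes (0 calls), array weights gave 1, the fit on 2 stages gave 2 and leaving out gd11 replicates 16 and 17 gave 1. In gd18 against gd16 testes (0 calls), these 3 settings gave 2 each, and single arrays 0 to 1. In pnd2 against gd18 testes (4 calls), the fit on 2 stages and leaving out gd11 replicates 16 and 17 gave 6 each, and single arrays gave 2 to 5. In pnd2 against gd11 testes (10 calls), the probe set with the lowest mean gave 7, the fit on 2 stages 8, leaving out gd11 replicates 16 and 17 gave 9 and single arrays 9 to 10, and of the 28 other endothelial genes (20 calls) 14 to 22. The F-test called 9 to 10 without single arrays and 8 with the probe set with the lowest mean. Relative to the other endothelial genes (9 calls), the fit on 2 stages gave 4, the probe set with the lowest mean 7, leaving out gd11 replicates 16 and 17 gave 10 and single arrays 5 to 10. On that scale Flt4 in pnd2 against gd11 testes turned to 0.21 (adjusted p = 0.709) with its dim probe set, in place of -0.60. With the dimmest probe set of each gene, Vegfa in gd12 against gd11 testes turned to -0.19 (adjusted p = 0.631), in place of 0.78, and Efnb2 in pnd2 against gd18 testes to 0.11 (adjusted p = 0.892), in place of -0.64. With that probe set the fall of Flt4 in pnd2 against gd11 testes was -0.18 (adjusted p = 0.687). Kdr lost its call in that comparison in the fit on 2 stages (adjusted p = 0.0514). A fit that leaves 1 gd12 array assumes that it varies like the other stages. No paired analysis was possible because each array has a replicate number of its own, which no other stage shares. Dim probe sets, such as those of Flt4 and Cdh5, limit what a change can show.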
